A study of Drosophila melanogaster with 12 samples.

Results

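PnM cells are a clonal male line of *Drosophila melanogaster* that carries 1 set of chromosomes from a mother of the inbred strain DGRP-057 and 1 set from a father of the inbred strain DGRP-439. The maternal and the paternal homolog of each autosome were compared in the 2 untreated Hi-C libraries, using read pairs with both sides on the same homolog of the same arm (*cis*-maternal and *cis*-paternal pairs). Arms 2L, 3L and 3R were used, and pairs had to lie on the same strand or at least 1 kb apart. Of 75750096 pairs in both libraries, 12206335 (16.1%) met this rule, 6857185 of them maternal and 5349150 paternal.

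The line was started from embryos of the cross, immortalised on its own and was cloned by dilution, and the authors took it to be most likely mesodermal because its cells stain for the muscle factor Mef2, which Hi-C pairs cannot check. They described it as diploid apart from irregularities of chromosome 4 and a partial disomy of 3R. For that reason 3R from 3.24 Mb on, where the maternal homolog is in excess, is given apart here and called disomic 3R. The untreated cells received no RNAi. The 2 mock RNAi libraries, from cells of the same line transfected by calcium phosphate with blank water in place of dsRNA, are given as values with no test. All libraries come from 1 clone, and nothing in the labels says that the 2 untreated libraries came from separate cultures. P-values therefore measure the spread between these 2 libraries, which may be technical. This spread was pooled in part or wholly over the features of a test, not taken from each feature alone. A difference between homologs cannot be told apart from a difference between the 2 strains, since each homolog came from a single strain. In a cell with 2 maternal copies of 3R, contacts between these copies carry the same variants as contacts within a copy and are counted as *cis*-maternal, and the 2 cannot be told apart.

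Hi-C joins DNA fragments that lie near each other in the nucleus, and sequence variants then tell which homolog each joined fragment came from. The frequency of contacts falls with the separation along the chromosome, drops across domain boundaries (insulation) and follows a plaid pattern of active and inactive compartments. In flies the homologs are paired in somatic cells, so that a maternal and a paternal copy of a locus lie close together while each still folds as its own chromatin fibre.

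Untreated 1 held 37284329 pairs and untreated 2 held 38465767, of which 6013327 and 6193008 were *cis* pairs kept, and the mock RNAi libraries held 11038225 and 12077016 pairs. The lower of the 2 mapping quality scores of a *cis* pair had a median of 21 on both homologs in each of the 4 libraries. Read pairs without molecular identifiers are not independent molecules, so intervals given below cover counting error only.

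On 2L and 3L the homologs gave nearly equal numbers of contacts. On 2L the maternal homolog had 953206 *cis* pairs and the paternal 947041 in untreated 1, and 981388 and 972872 in untreated 2. The ratio of maternal to paternal pairs was 1.01 in each library. On 3L the ratio was 0.986 and 0.985, so that the paternal homolog was ahead by a small margin in both. In the mock RNAi libraries the 2L ratio was again 1.01 in each, whereas the 3L ratio was 1.03 and 1.04.

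On 3R before 3.24 Mb the ratio was 1.06 and 1.07, over 20710 maternal and 19532 paternal pairs in untreated 1. The mock RNAi libraries had 1.28 and 1.34 there. In disomic 3R the maternal homolog had 1468803 pairs and the paternal 734595 in untreated 1, and 1521596 and 756245 in untreated 2, ratios of 2.00 and 2.01. The mock RNAi libraries stood higher, at 2.24 and 2.21. The exact sign-flip test over 2 libraries cannot go below p = 0.5, and no test was made of these ratios.

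A second count does not depend on contacts within an arm. It takes the sides of pairs whose partner lies on another arm, which follow the number of copies of the homolog and how many of its sites can be assigned. The maternal over paternal ratio of these between-arm sides was 1.00 in each library on 2L and 0.996 and 0.992 on 3L. On 3R before 3.24 Mb it was 1.02 and 1.04, and in disomic 3R it was 1.54 in each library. In disomic 3R the *cis* ratio therefore exceeded the between-arm ratio in both libraries, as it did in both mock RNAi libraries, where the between-arm ratio was 1.70 and 1.71.

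The disomic segment of 3R held a second step. Among all positions in it, the least-squares single step in the between-arm ratio of 20 kb windows fell at position 8340001 of 3R (dm3), 5.1 Mb after the start of the segment, over 1228 windows. The mean ratio was 1.33 before it and 1.58 after it, and the step took up 35.3% of the variance of the windows. The same position came out in each untreated library alone and in mock RNAi 1, and mock RNAi 2 gave 8620001. In the mock RNAi libraries together the means were 1.60 and 1.73 and the step took up 6.64% of the variance. The step was looked for after the values along 3R had been seen, and a least-squares step is found in any series of values, so no test is given.

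In the first part of the segment, the 5.1 Mb before the step, the between-arm ratio was 1.34 in each untreated library and 1.59 and 1.62 in mock RNAi. In the second part, the remaining 19.6 Mb, it was 1.57 and 1.58 against 1.72 and 1.73. The ratio of *cis* sides was 1.72 and 1.73 in the first part and 2.03 and 2.04 in the second, with mock RNAi values of 2.13 and 2.08 and of 2.25 and 2.23. Untreated and mock RNAi libraries did not overlap in either part.

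**Figure D1:**
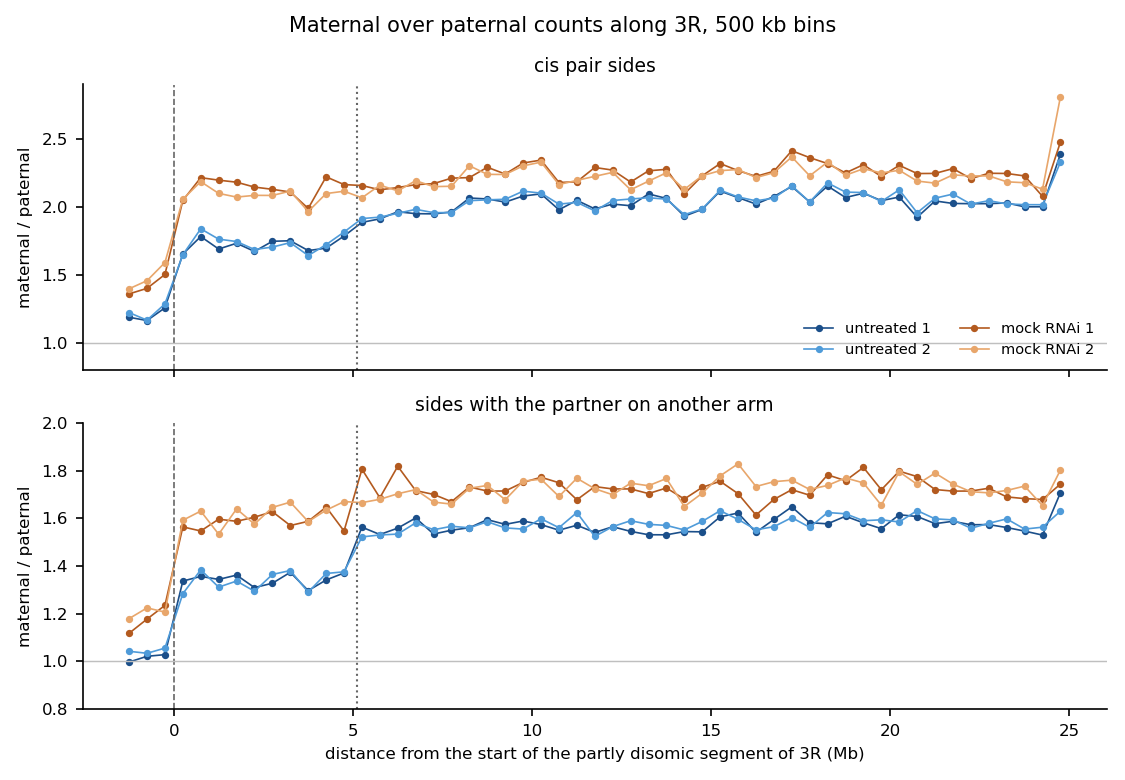
Maternal over paternal counts in bins of 500 kb along 3R, plotted against the distance in Mb from the start of the partly disomic segment (dashed line), for *cis* pair sides (top) and for sides whose partner lies on another arm (bottom). Points are single libraries, blue for untreated and orange for mock RNAi. The dotted line is the second step, 5.1 Mb after the start, where the untreated between-arm ratio goes from 1.34 to about 1.58.

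Contacts across the start of the disomic segment were counted by homolog. Within 200 kb on both sides of the start, *cis*-maternal pairs that crossed it outnumbered *cis*-paternal ones 2335 to 1681 in untreated 1 and 2527 to 1744 in untreated 2, ratios of 1.39 and 1.45. These values lie between the ratio before the start and that after it. Among *trans*-homolog (*thom*) pairs crossing the start, those with the paternal homolog before it and the maternal homolog after it outnumbered the opposite kind, 1833 to 1419 and 1897 to 1448, ratios of 1.29 and 1.31. Around a point 1 Mb before the start the same *thom* ratio was 1.02 and 1.00, and around a point 1 Mb after it 0.965 and 0.936. In mock RNAi the ratio at the start was 1.16 and 1.41, on 379 to 535 pairs of each kind. Around the point 1 Mb before the start the mock RNAi ratio was 1.19 and 1.16, and around that 1 Mb after it 1.06 and 0.943. In mock RNAi 1 the ratio at the start was thus no higher than at the point before it.

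Contact frequency by separation was the same on both homologs of 2L and 3L within a few percent. The share of a homolog's pairs in each of 32 ranges between 1 kb and 10 Mb was compared, 8 ranges for each order of magnitude. On 2L the log2 ratio of maternal to paternal share ran from −0.04 to 0.02, and on 3L from −0.02 to 0.03, with a median size of 0.01 on both. The libraries differed from each other by a median of 0.01 as well. Pairs from 1 Mb on made up 26.2% of the maternal and 26.3% of the paternal pairs of 2L in untreated 1, and 26.8% of each in untreated 2.

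The slope of the log-log curve on 2L between 10 and 100 kb was −0.88 on the maternal and −0.87 on the paternal homolog in untreated 1, and −0.86 and −0.85 in untreated 2. Between 100 kb and 1 Mb it was −1.30 or −1.31 in all 4 curves, and from 1 to 10 Mb it flattened to between −0.56 and −0.55. Between 10 and 100 kb the 2 libraries differed by more than the 2 homologs did.

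Disomic 3R departed from this. The maternal share was higher than the paternal in both libraries in all 8 ranges from 1 Mb on, by 0.04 to 0.12 on the log2 scale, and lower in both in 18 of 20 ranges between 3 kb and 1 Mb. The values at the ranges that start at 1 kb, 10 kb, 100 kb and 1 Mb were −0.09, −0.02, −0.05 and 0.04. The range with the largest difference, which starts at 3162 kb, held 3.54% and 3.60% of the maternal pairs and 3.23% and 3.33% of the paternal pairs (log2 ratio 0.12, SE 0.01, adjusted p = 0.0594 by limma). Pairs from 1 Mb on made up 27.0% and 27.5% of the maternal pairs of the segment against 25.1% and 25.7% of the paternal ones. In mock RNAi 2 the same share was 26.9% against 25.5%, the maternal share was the larger in mock RNAi 1 as well, and 7 of the 8 ranges from 1 Mb on were higher in both libraries.

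No range passed the test, 0 of 121 over the 4 segments (0.0% called), at an adjusted p of 0.05 by limma with the library as a block. The lowest adjusted p was 0.0594, and 32 ranges had an unadjusted p under 0.05. With both mapping quality scores at least 20, 5 ranges passed. On 3R before 3.24 Mb the curves were noisy, with log2 ratios from −0.35 to 0.24 and a median difference between libraries of 0.07.

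**Figure D2:**
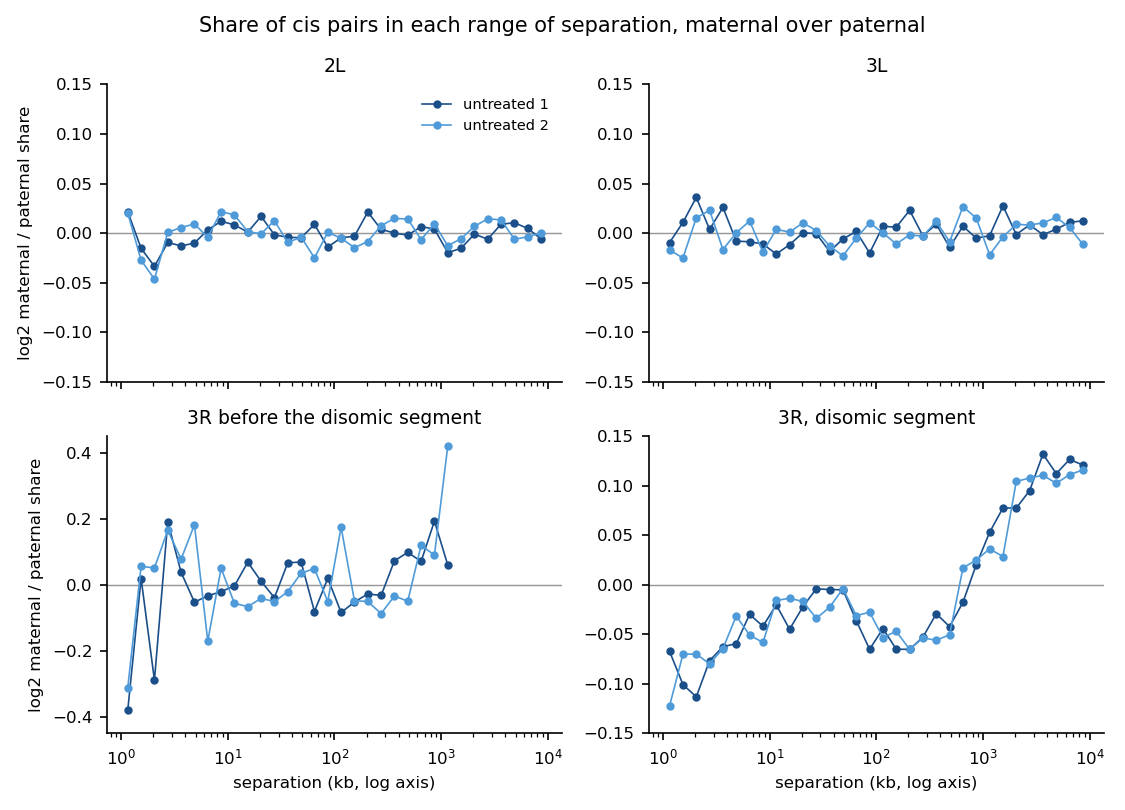
Log2 ratio of the maternal to the paternal share of *cis* pairs in each range of separation (kb, log axis), for 2L, 3L, 3R before the disomic segment and disomic 3R. Points are the 2 untreated libraries, and the vertical axis of 3R before the disomic segment covers a wider span than the others. In disomic 3R both libraries lie above 0 from 1 Mb on and mostly below it from 3 kb to 1 Mb.

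The raw counts of disomic 3R showed the same by separation. Within the second part, the ratio of maternal to paternal pairs was 1.91 and 1.92 under 10 kb, 2.01 and 2.02 between 10 and 100 kb, and 1.98 and 1.99 between 100 kb and 1 Mb. It was 2.20 in each library between 1 and 10 Mb and 2.21 and 2.23 from 10 Mb on. Within the first part it was 1.56 and 1.60 under 10 kb and 1.71 and 1.69 between 1 and 10 Mb. On 2L the same ratios stayed between 1.00 and 1.02 in all classes of separation and on 3L between 0.971 and 0.991, so the rise with separation was seen on disomic 3R and not on these arms.

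Windows of 20 kb were compared next, by the number of *cis* pair sides on each homolog, with each homolog and library centred on the median window of its segment. Of 3487 windows with a mean of at least 100 sides, 1645 passed the test at an adjusted p of 0.05 (limma, 47.2% called), 841 with the maternal homolog higher and 804 with it lower. Centring each segment on its own median sets this near-even split, and centred on 2L and 3L 2312 windows were called, 1795 with the maternal homolog higher and 517 with it lower. Most differences were small: 90.1% of windows lay within 1.2-fold. The log2 ratio had an SD of 0.17 over windows, against an SD of 0.09 for the difference between the 2 libraries. In this test and the other tests of sides per window, limma drew each SE wholly from windows of like count (median of 3487 degrees of freedom). A window's own difference between the 2 libraries does not enter its SE, so a small p-value does not show that they were alike. The share called was 41.9% on 2L, 42.9% on 3L, 31.9% on 3R before 3.24 Mb and 56.6% in disomic 3R, where the second step lies inside the segment. With disomic 3R centred in 2 parts, a choice made after the data were seen, 48.0% of its windows were called.

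The mock RNAi libraries, which took no part in the calls, had the same sign in both libraries for 1186 of the 1645 windows (72.1%). Over all windows tested this share was 53.7%.

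**Figure D3:**
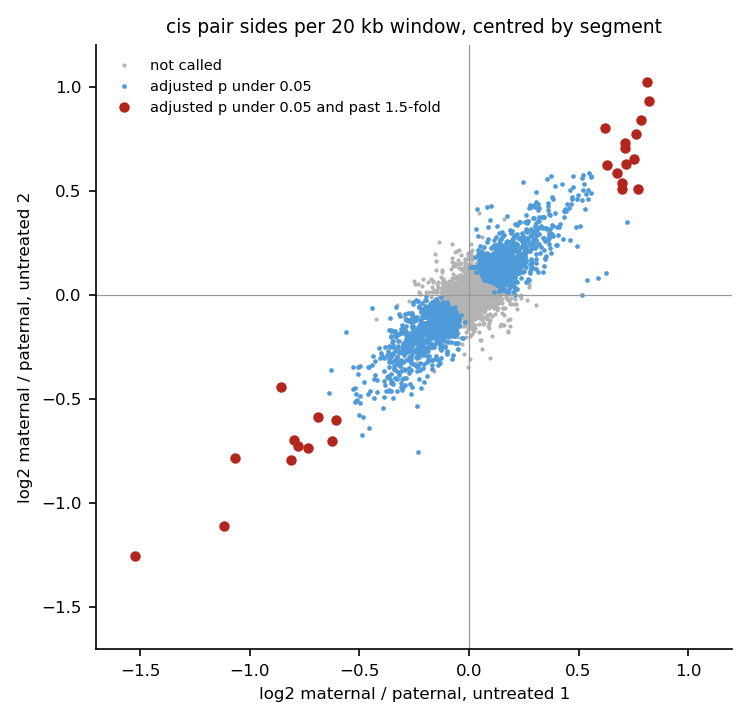
Log2 ratio of maternal to paternal *cis* pair sides in each of 3487 windows of 20 kb, centred by segment, in untreated 1 (horizontal) and untreated 2 (vertical). Grey windows were not called, blue ones had an adjusted p under 0.05, and the 25 red ones were also past 1.5-fold. The red windows keep their sign in both libraries.

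Only 2 windows were called and past 2-fold in both libraries (0.0574% of those tested), and in both the paternal homolog was higher. The first, 2L from 17120001 to 17140000, had 235 and 285 maternal against 676 and 677 paternal sides in the 2 untreated libraries. The maternal level was 2.62-fold lower (log2 ratio −1.39, SE 0.07, adjusted p = 1.1e-74 by limma). Its mock RNAi counts were 86 and 95 against 158 and 221.

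The second, 3L from 20320001 to 20340000, had 411 and 425 maternal against 925 and 939 paternal sides. The maternal level was 2.16-fold lower (log2 ratio −1.11, SE 0.06, adjusted p = 1.2e-69 by limma), and mock RNAi had 161 and 187 against 313 and 338. These 2 windows also had fewer maternal between-arm sides, 97 and 106 against 180 and 199 on 2L and 309 and 311 against 602 and 630 on 3L. No 2 neighbouring windows passed 2-fold, so there was no run of such windows to describe.

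A lower fold was then taken after the values were seen. Of the windows tested, 25 were called and past 1.5-fold (0.717%), 14 with the maternal homolog higher and 11 with it lower, and all 25 had the same sign in both mock RNAi libraries. Outside disomic 3R no 2 of them were neighbours. On 2L the window from 9100001 to 9120000 had 267 and 313 maternal against 558 and 536 paternal sides, a log2 ratio of −0.92. The window from 14840001 to 14860000 had 491 and 548 against 851 and 884, a log2 ratio of −0.75. Both windows were chosen for their fold and for the same sign in both libraries.

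In the other direction, the window of 2L from 2260001 to 2280000 had 699 and 752 maternal against 394 and 392 paternal sides, a log2 ratio of 0.88. The window of 2L from 240001 to 260000, near the telomere, had 248 and 267 against 143 and 148, a log2 ratio of 0.81. With both mapping quality scores at least 20 this fell to 0.45, and the mock RNAi libraries had 0.20 and 1.2 on the log2 scale. On 3L the 3 lowest after the one named above started at 14900001, 15860001 and 12960001, with log2 ratios of −0.64, −0.60 and −0.58. The longest run of called windows in 1 direction outside disomic 3R was 7 windows, from 15240001 to 15380000 of 2L, with a median log2 ratio of 0.15.

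In disomic 3R values are relative to the segment's own maternal excess. The window from 7680001 to 7700000 had 1170 and 1230 maternal against 1024 and 1069 paternal sides, a centred log2 ratio of −0.80. That is near equal, where the first part of the segment, in which it lies, had 1.72 and 1.73. In mock RNAi it had 431 and 500 against 245 and 290 sides, centred log2 ratios of −0.34 and −0.35. The near equality was therefore not seen in mock RNAi. Centred on 2L and 3L the same window had a log2 ratio of 0.19, so its sign depends on the scale. The windows from 12320001 and from 4360001 had −0.75 and −0.73, and these turned to 0.24 and 0.26 in the same way. At the other end the windows from 11700001, 26220001 and 18480001 had 0.72, 0.63 and 0.63. The first of these had 1855 and 1931 maternal against 563 and 584 paternal sides, over 3 to 1, and with both mapping quality scores at least 20 its value fell to 0.38.

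These window differences were largely shared by contacts between arms. Of the same 3487 windows, 914 were called for between-arm sides (26.2%), 407 with the maternal homolog higher. Across windows the log2 ratios of *cis* and between-arm sides had a Pearson correlation of 0.79 (Spearman 0.73, n = 3487 windows, which share libraries and mappable variants), and 75.1% had the same sign. All 25 windows past 1.5-fold had the same sign in between-arm sides, and 23 of them were called there. Their median size was 0.71 on the log2 scale in *cis* sides and 0.59 in between-arm sides. What sets a difference that *cis* and between-arm sides share was not tested.

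Dividing the *cis* ratio by the between-arm ratio leaves what the 2 do not share, which can come from *cis* or from between-arm contacts. By this ratio of ratios 51 of 3487 windows were called (1.46%), 34 with the maternal homolog higher and 17 with it lower. The count depended on the settings and fell to 6 with disomic 3R centred in 2 parts. Those 6 windows were called in all 7 settings that used windows of 20 kb, each of which centred the values by segment or part of a segment. In mock RNAi, 33 of the 51 (64.7%) had the same sign in both libraries, against 32.2% of all windows tested.

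The lowest of the 6, 3L from 9080001 to 9100000, had fewer *cis* but more between-arm sides on the maternal homolog. It had 1381 and 1416 maternal against 2049 and 2068 paternal *cis* sides, and 805 and 976 maternal against 754 and 848 paternal between-arm sides (log2 ratio of ratios −0.68, SE 0.06, adjusted p = 5.9e-22 by limma). The mock RNAi values of this window were −0.57 and −0.73.

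The window of 3R from 13920001 to 13940000, in the disomic segment, had 3632 and 3874 maternal against 2592 and 2655 paternal *cis* sides, a ratio below that of the segment. Its between-arm sides were 1237 and 1392 against 864 and 960 (log2 ratio of ratios −0.38, SE 0.05, adjusted p = 2.5e-10 by limma). This value is relative to the segment. Before centring, the *cis* and between-arm ratios of the window were alike, with a log2 ratio of ratios of −0.03 and 0.01 in the 2 libraries. A smaller difference of −0.23 was called on 3L from 780001 to 800000. The window of 2L from 17120001, named above, had −0.50 (adjusted p = 0.0349 by limma), and this call was lost in 5 alternatives, with adjusted p from 0.0759 to 0.223.

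The other 3 of the 6 windows lay close together at the pericentromeric end of 2L, with the maternal homolog higher. The window from 22400001 to 22420000 had 502 and 464 maternal against 295 and 270 paternal *cis* sides, whereas its between-arm sides were nearly equal, 295 and 312 against 290 and 291 (log2 ratio of ratios 0.70, SE 0.10, adjusted p = 5.4e-10 by limma). Its *cis* log2 ratio of 0.77 fell to 0.40 with both mapping quality scores at least 20. The window from 22560001 to 22580000 had 883 and 894 against 572 and 510 *cis* sides (log2 ratio of ratios 0.54, SE 0.08, adjusted p = 1.3e-08). The window from 22580001 to 22600000 had a log2 ratio of ratios of 0.36. The window from 22500001 to 22520000 had 0.53 (adjusted p = 0.0307 by limma), a call that was lost in 5 alternatives, with adjusted p from 0.130 to 0.706. Its *cis* sides were nearly equal, 222 and 207 maternal against 191 and 212 paternal. Its value came mostly from fewer maternal between-arm sides, 108 and 121 against 145 and 167.

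Around them the maternal excess covered a stretch of 320 kb, from 22280001 to 22600000 of 2L, chosen after its values were seen. Of its 16 windows, 12 were called higher on the maternal homolog in *cis* sides and 0 lower, with a median log2 ratio of 0.47 (0.00 over all windows). Of all 3487 windows, 841 were called higher and 804 lower. Between-arm sides had a median of 0.12 there, with 6 windows called higher and 2 lower, against 407 and 507 of all 3487. In mock RNAi 12 of the 16 windows had more maternal *cis* sides in both libraries, and the same share over all windows was not worked out. The largest value lay at 22280001, with 772 and 872 maternal against 438 and 426 paternal *cis* sides, a log2 ratio of 0.92, and there the between-arm sides were also unequal, 487 and 548 against 281 and 366.

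**Figure D4:**
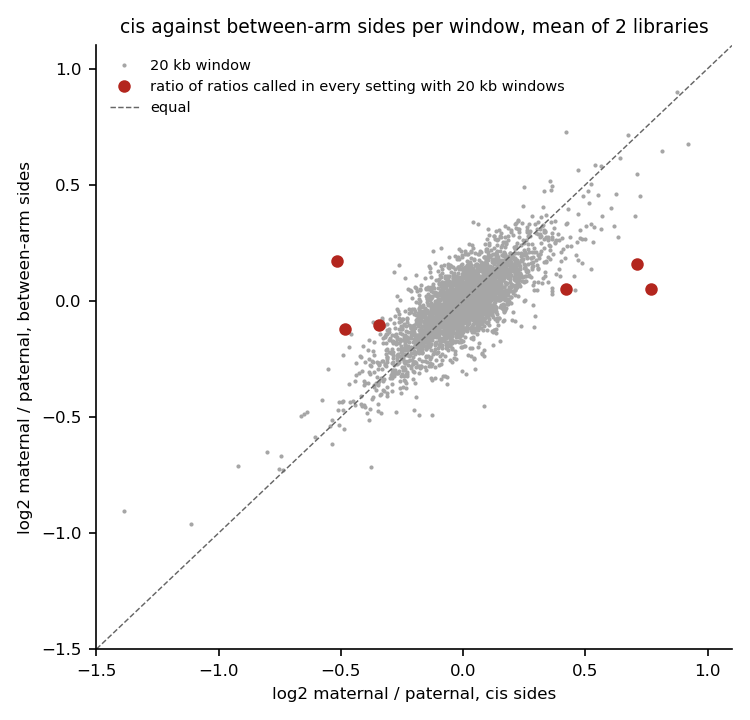
Log2 ratio of maternal to paternal *cis* pair sides (horizontal) against that of between-arm sides (vertical) in 3487 windows of 20 kb, each the mean of the 2 untreated libraries, centred by segment. The dashed line marks equal values. The 6 red windows were called in all 7 settings for the ratio of ratios, which is the departure from this line, so they lie off it by choice. On this centred scale the *cis* log2 ratio was below the between-arm one in 3 of them and above it in 3.

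How far the contacts of a window reach was compared by its distal share, the ratio of *cis* sides at separations of at least 100 kb to those under 100 kb. Of 3487 windows 88 were called (2.52%), 51 with the maternal ratio higher and 37 with it lower, and 41 of the 88 lay in disomic 3R. Called both here and for the ratio of *cis* to between-arm sides were 7 windows, 13.7% of those 51 and 7.95% of these 88, where 2.52% and 1.46% of all windows were called. In mock RNAi 46 of the 88 (52.3%) had the same sign in both libraries, against 31.9% of all windows.

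In all 7 settings 3 windows were called, all in disomic 3R. In each the maternal ratio of distal to nearer sides was the lower, relative to the segment. These started at 4700001, 13400001 and 13420001, with log2 differences of −0.38, −0.38 and −0.30. The 2 last are neighbours. The largest maternal excess outside disomic 3R lay on 2L from 7320001 to 7340000. There the maternal homolog had 861 and 931 distal and 1200 and 1188 nearer sides, and the paternal 815 and 831 distal and 1436 and 1481 nearer sides (log2 difference 0.40, SE 0.08, adjusted p = 5.8e-04 by limma). The difference lay mostly in the nearer sides. Mock RNAi had 0.41 and 0.17, and with same-strand pairs the call was lost (adjusted p = 0.122).

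The 3 lowest distal shares, at 22840001 and 22600001 of 2L and 17680001 of 3L, had −0.57, −0.52 and −0.54 and lost their call without the library as a block, with same-strand pairs and at the higher mapping quality score. The highest of all, 3R from 7260001 to 7280000, had 0.62, with 0.29 and 0.95 in the 2 libraries (adjusted p = 0.0306 by limma). Close to it 3R from 7300001 to 7320000 had 0.36, with 0.14 and 0.58. Both lost their call with disomic 3R centred in 2 parts, without the library as a block and with same-strand pairs, and mock RNAi values were 0.00 and −0.06 for the former and −0.09 and −0.04 for the latter.

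Single distant contacts were compared in 20 kb pixels at separations of at least 100 kb. Of 15581 pixels with a mean of at least 10 pairs, 13 were called (0.0834%), 12 with the maternal homolog higher, and 5 of them passed 2-fold in both libraries. At an unadjusted p under 0.05 there were 1504. After the offsets of both windows were taken off, an alternative chosen after the data were seen, 12 pixels were called, of which 1 was among the 13. In 6 of the 13 over 50% of the log2 ratio was left.

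That pixel joined 3R from 21940001 to 21960000 with 3R from 22480001 to 22500000, 540 kb apart in disomic 3R. It held 19 and 20 maternal pairs and 2 and 0 paternal pairs. Over both libraries this was 39 to 2, a maternal share of 95.1% (95% exact binomial interval 83.5% to 99.4%), where the segment as a whole has 2.00 to 1. The pixel reached the minimum mean of 10 pairs only through its maternal pairs, and it was picked out by its ratio. Neither the interval nor the adjusted p allows for this choice, so they lend the difference no support. Mock RNAi had 5 and 6 against 2 and 1. The fitted log2 ratio of 2.61 (adjusted p = 0.0179 by limma) depends on the pseudocount, was 2.06 with the window offsets taken off (adjusted p = 0.0240) and was not called with a pseudocount of 10 (adjusted p = 0.116). With same-strand pairs 0 pixels were called.

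The pixel with the lowest maternal value joined 2L from 17120001 with 17340001, 220 kb away, at 8 and 7 maternal against 26 and 27 paternal pairs (log2 ratio −1.74, adjusted p = 0.0244 by limma). Its first window is the one with the lowest maternal to paternal *cis* ratio of all, and with the offsets taken off the pixel had −0.40. The next largest, on 2L from 12720001 to 12880001, had 37 and 34 against 12 and 9 pairs (log2 ratio 1.71). The pixel of 3R that joins 23560001 with 23720001 had 127 and 129 against 30 and 31, a log2 ratio of 1.17. That on 3L which joins 4860001 with 4980001 had 74 and 71 against 26 and 46, a log2 ratio of 1.09, and the 2L pixel of 22580001 with 22700001, inside or next to the pericentromeric stretch above, had 139 and 127 against 66 and 76.

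Balanced maps gave 3 tracks for each homolog. The *cis* score is the log2 mean contact within 12 kb of a 4 kb bin. The insulation score is the log2 mean contact across a bin in a diamond of 5 bins. The eigenvector is a plaid axis of the 20 kb map. A shared eigenvector, from both homologs and libraries together, was first picked and signed by the local density of boundaries, because no gene annotation of the dm3 build was used. For each homolog and library, the leading eigenvector most correlated with the shared one was then taken, with its sign. This choice favours likeness between homologs and between libraries. No window was called in any of them by limma at an adjusted p of 0.05. The count was 0 of 3093 windows for the *cis* score (0.0%), 0 of 3190 for insulation (0.0%) and 0 of 3398 for the eigenvector (0.0%), with 230, 210 and 224 windows at an unadjusted p under 0.05.

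These tests could see only large differences. The median half-width of the 95% interval of a window's difference was 0.31 for the *cis* score and 0.29 for insulation on the log2 scale, and 0.53 SD for the eigenvector. The SD of the difference over windows, 0.19, 0.18 and 0.30, was smaller than that of the difference between libraries, 0.35, 0.32 and 0.54. With same-strand pairs 78 windows were called for the eigenvector, and 25 of 1714 windows with a 40 kb map.

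As a description, the 2 homologs of a library resembled each other about as much as the 2 libraries of a homolog did. Over 2L and 3L, Spearman's rho between homologs averaged 0.52 for the *cis* score, 0.72 for insulation and 0.92 for the eigenvector, and between libraries 0.55, 0.74 and 0.92. The 4865 bins of 2L had a *cis* score rho of 0.56 and 0.54 between homologs and 0.57 and 0.55 between libraries. In disomic 3R the maternal homolog, which had more pairs, had an insulation rho of 0.77 between libraries, against 0.66 for the paternal homolog. With both libraries averaged the rho between homologs for insulation on 2L was 0.82. Neighbouring bins are not independent, and the eigenvectors of all homologs and libraries were matched to a shared one.

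**Figure D5:**
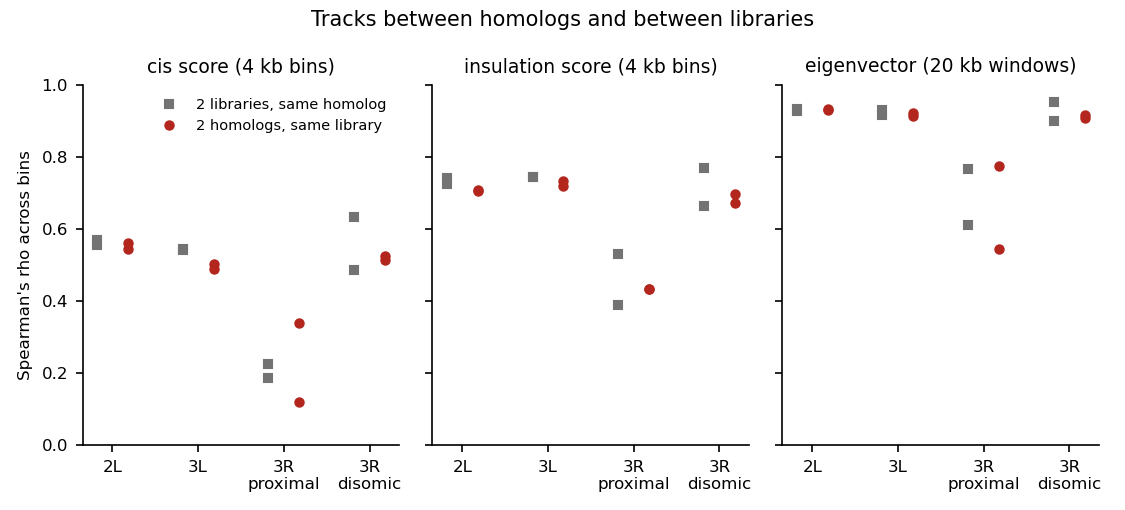
Spearman's rho across bins for the *cis* score, the insulation score and the eigenvector, in 4 segments. Grey squares compare the 2 untreated libraries of a homolog and red circles the 2 homologs of a library. On 2L and 3L the red and grey points lie within 0.1 of each other, and 3R before the disomic segment, with 61 to 302 bins, is scattered.

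The sign of the eigenvector was opposite on the 2 homologs in both libraries in 80 of 3398 windows (2.35%), 40 in each direction. The 2 libraries of the maternal homolog differed in sign in 10.6% of windows and those of the paternal homolog in 11.5%. These 2 shares each compare a single pair of tracks, whereas the 2.35% had to hold in both libraries. That is a stricter count, so it cannot be set against them. The share of windows with a positive sign was 55.7% on each homolog. On 3R before 3.24 Mb, which runs to the pericentromere, 11.5% of maternal and 8.20% of paternal windows were positive, and 0 of 61 had opposite signs on the homologs.

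Domain boundaries, taken as minima of the insulation score with a prominence over 0.3, numbered 1339 and 1309 on the maternal and 1407 and 1388 on the paternal homolog. Within 16 kb, 81.9% and 82.6% of boundaries were matched between the homologs of a library. Between libraries, 84.7% were matched on the maternal and 83.3% on the paternal homolog. The match between homologs was thus within 3 percentage points of that between libraries. Boundaries were dense, 1339 over 16272 usable maternal bins of 4 kb in untreated 1, and a match was allowed within 4 bins. Many would therefore match by position alone, and the share matched at random positions was not worked out.

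Few boundaries were called particular to a homolog, by a rule that is hard to meet where minima are this dense. Of 1130 maternal boundaries found in both libraries, 10 (0.885%) had no paternal counterpart even at a prominence of 0.1, and 8 of 1163 paternal boundaries (0.688%) had no maternal one. For 3 of the 10 and 2 of the 8 the other homolog had no values near the place, since its bins were masked. The 3 maternal ones with the largest prominence lay at 7384001 of 3R, 18796001 of 3L and 2488001 of 2L, and the paternal homolog had no values at the former 2. At 2488001 the insulation score was 1.66 and 2.25 on the maternal and 2.02 and 1.75 on the paternal homolog. The lower homolog there thus differed between the libraries. The 3 paternal ones lay at 2240001 of 3R, where the maternal homolog had no values, 364001 of 2L and 20108001 of 3R. At 364001 the maternal homolog had no value in untreated 2. At 20108001 the maternal score was the lower in both libraries, 2.35 and 2.85 against 2.45 and 3.32.

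A maternal boundary at 13916001 of 3R lay beside the window from 13920001 to 13940000 whose maternal to paternal *cis* ratio was low for disomic 3R, and was picked out after its values were seen. The insulation score there was 2.43 and 2.60 on the maternal against 3.24 and 3.15 on the paternal homolog. The boundary and the window share many of their pairs. A paternal boundary at 17132001 of 2L fell in the window with the lowest maternal to paternal *cis* ratio, where the maternal homolog had no insulation value in either library.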

How the data were processed

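The members, windows and measures were chosen with earlier results of these data known. Per the file headers and the study's methods, reads were trimmed, aligned with BWA 0.7.15 to a diploid dm3 genome carrying the variants of both strains, and kept where both sides mapped uniquely to a homolog, without PCR duplicates. The deposited files list read pairs with positions, strands and a mapping quality score for each side. From these, *cis* sides per 20 kb window (mean of at least 100 over the 4 homolog and library columns), between-arm sides (at least 20) and pixels (at least 10 pairs) were counted, log2-transformed with a pseudocount of 1 and centred by segment. The homolog coefficient was fitted in limma 3.58.1 (R 4.3.3) with the library as a block, since both homologs of a library come from the same cells, with Benjamini-Hochberg adjustment over all features and a threshold of 0.05. Between homologs, the correlation of library deviations was 0.11 for *cis* sides and 0.40 for ranges of separation, and at most 0.09 for the other measures. Contact maps (4 kb bins) were balanced across both homologs of all arms together, and eigenvectors came from 20 kb maps. Pairs were counted in Python 3.11.15 with pandas 2.3.3 and numpy 2.4.6, intervals came from scipy 1.17.1 and figures from matplotlib 3.10.9.

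Windows were named as those at each end past 2-fold in both libraries (5, or 3 in disomic 3R), the 3 at each end of the other window tests, 5 pixels at each end, the 3 boundaries of each homolog with the largest prominence, and ranges at 1 kb, 10 kb, 100 kb and 1 Mb with the largest difference. Alternatives were same-strand pairs, a mapping quality score of at least 20, no block, other pseudocounts, filters, windows, centring and balancing, and each library alone. Coordinates are dm3 and 1-based. The test of between-arm sides was added as a companion of the ratio of ratios. Gene annotation was not used, and RNA-seq and knockdown libraries were not analysed here.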

Additional observations from a re-analysis of the deposited data

Results flagged for a closer look

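On 3L the maternal to paternal ratio lay on opposite sides of 1 in untreated and mock RNAi cells. The *cis* ratio averaged 0.986 in the 2 untreated and 1.04 in the 2 mock RNAi libraries, and the between-arm ratio 0.994 and 1.02. Every library of a group lay on the same side, and the difference was not tested. The distal share of 3R from 7260001 (log2 difference 0.62) and from 7300001 (0.36) was called higher on the maternal homolog in untreated cells, while both mock RNAi libraries lay slightly below 0. Both calls were lost in 3 alternatives. The 2 untreated libraries had 0.29 and 0.95 in the former window and 0.14 and 0.58 in the latter. This difference was not tested either.

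Contacts between a window of 1 homolog and the X chromosome are part of the between-arm sides counted above. They also enter the ratio of ratios, and were not looked at singly there. Of 424 pixels of 20 kb between these arms and another chromosome with at least 8 pairs in each untreated library, 23 had at least 5 times the pairs of the other homolog, and the partner lay on the single maternal X in each. The window of 3R from 22580001, maternal, had 46 and 50 pairs with X from 7740001 in the untreated libraries, against 1 and 2 on the paternal homolog. Maternal 3R from 23620001 had 37 and 43 pairs with X from 8180001 against 5 and 8. Both windows of 3R lie in disomic 3R, and these raw counts are not corrected for its maternal excess. Maternal 2L from 22220001 had 34 and 27 with X from 21900001 against 0 and 1.

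On the paternal homolog, 2L from 6100001 had 61 and 60 pairs with X from 7740001 against 6 and 8 on the maternal homolog. Paternal 3L from 2780001 had 49 and 44 with the same window of X against 5 and 10. Paternal 3L from 6660001 had 20 and 24 with X from 22300001 against 1 and 0. These 6 pixels also had more pairs on the same homolog in both mock RNAi libraries. Their origin was not tested.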

How the results depend on the processing

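The depth of a single-homolog map of 1 library limits what the tracks and pixels can show. Of 270 tested values for single windows and pixels, 212 kept their direction and side of the threshold, 55 lost their call and 3 changed sign: centred on 2L and 3L, the *cis* log2 ratios of 3R from 7680001, 12320001 and 4360001 became 0.19, 0.24 and 0.26. With both mapping quality scores at least 20, the calls were 24 for the ratio of ratios, 2 for the *cis* score, 18 for the eigenvector, 25 for the distal share and 5 for ranges of separation. With same-strand pairs they were 18 for the ratio of ratios, 78 for the eigenvector, 4 for the distal share and 0 for pixels. Without the library as a block they were 8 for the ratio of ratios, 1 for the eigenvector, 28 for the distal share and 2 for ranges (0 with the pairing of homologs within a library). They were 1510 for *cis* sides, 12 for pixels and 0 for the *cis* score and insulation. The 60 values with a library left out have no test. All kept their direction, which was fixed beforehand, since these windows were picked with the same sign in both libraries. Disomic 3R centred in 2 parts left 6 for the ratio of ratios. A pseudocount of 10 left 7 for the ratio of ratios and gave 36 pixels, and pixels with a mean of at least 20 pairs gave 69.

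Windows of 40 kb gave 895 calls of *cis* sides among 1762 windows, 0 past 2-fold in both libraries and, with a 40 kb map, 25 for the eigenvector. Windows past 2-fold in both numbered 471 when centred on 2L and 3L and 13 with no filter on low counts. Balanced within arms, insulation gave 1 call. The maternal to paternal *cis* ratio of 3L was 0.984, of 3R before 3.24 Mb 1.05 and of disomic 3R 1.99 with same-strand pairs, and 1.05 before 3.24 Mb at the higher mapping quality score. The Spearman correlation between homologs over 2L and 3L rose to 0.66 for the *cis* score balanced within arms (0.18 and 0.13 over all segments together, where each arm has its own scale), 0.91 for insulation with a diamond of 10 bins and 0.96 for the eigenvector at 40 kb. Matched boundaries were 76.8% at a prominence over 0.5 and 49.9% within 1 bin. With either library left out, 3 windows were past 2-fold, and the segment ratios were 1.01 on 2L, 0.985 to 0.986 on 3L, 1.06 to 1.07 before 3.24 Mb and 2.00 to 2.01 in disomic 3R. The cause of these changes was not tested.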

Other observations

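In the pericentromeric part of 3L, 4 windows of 20 kb were seen on the maternal homolog and almost not at all on the paternal one. They start at 23880001, 24120001, 24160001 and 24400001. The window from 24160001 had 89 and 113 maternal between-arm sides in the untreated libraries against 1 and 2 paternal ones, and 27 and 39 against 0 and 0 in mock RNAi. The window from 24400001 had 46 and 61 against 0 and 0, that from 23880001 had 29 and 35 against 0 and 0, and that from 24120001 had 20 and 31 against 0 and 0. Their *cis* sides numbered 6 to 19 in a library, below the minimum for the window test. No window of these arms was seen on the paternal homolog alone by the same rule.

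Among the contacts with X on a single homolog, the same window of X recurred with several partners. The window of X from 8180001 had 5 partners, all on maternal 3R between 23620001 and 24300000. These lie in the second part of disomic 3R, where the between-arm ratio was 1.57 and 1.58. The rule of 5 times took raw counts, which favours the maternal homolog there. The window from 9400001 had 4, of which 3 were paternal and 1 maternal, and that from 7740001 had 3, of which 2 were paternal. Each pixel was held in both untreated libraries at 8 pairs or more.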
